A study of Mus musculus with 20 samples.

Results

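Nuclear genes for the respiratory chain and the ATP synthase were examined in fibroblasts from mouse embryos. The cells were wild type (WT) or knocked out for Pml (KO), whose product forms the shell of PML nuclear bodies. Members were all genes whose symbol starts with Nduf, Uqcr, Cox4, Cox5, Cox6, Cox7, Cox8 or Atp5, and 88 of the 22593 genes present in all 4 RNA tables met this rule. By symbol, 38 Nduf genes were grouped as complex I, 7 Ndufaf genes as complex I assembly factors, 8 Uqcr genes as complex III, 18 Cox genes as complex IV and 17 Atp5 genes as complex V. Among them 4 were not counted as subunit genes (Atp5s, Atp5sl, Cox7a2l and Ndufa4l2), and the product of Ndufa4 is now placed in complex IV. All cultures were proliferating C57BL/6 cells, and the labels name no other allele and no drug treatment. RNA came from native cells, with 3 numbered samples and 1 unnumbered sample per genotype, and the numbered samples were available as 1 pooled table per genotype. The histone variant H3.3 was profiled by chromatin immunoprecipitation (ChIP) in cells transfected with a Flag-tagged or an HA-tagged copy, with 1 library per tag and genotype. Replicate values were not analysed here, so each difference is between single libraries or pooled tables and carries no test and no p-value.

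The respiratory chain passes electrons from NADH through complex I, from ubiquinol through complex III and from cytochrome c through complex IV to oxygen, and pumps protons across the inner mitochondrial membrane. Complex V, the ATP synthase, uses the proton flow to make ATP. Most subunits are encoded in the nucleus by small genes that are active in nearly every cell type, and transcription factors such as NRF1, ETS family proteins, YY1 and SP1 are known to act at many of their promoters. H3.3 is placed into chromatin outside DNA replication, and it is known to accumulate at the start sites and along the bodies of active genes.

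Promoters are shown for 5 members that the results below turn on. Atp5e and Atp5k had the lowest differences in 1 pair of RNA tables, Uqcrfs1 differed least within complex III in that pair, Uqcr11 had H3.3-Flag cover of its span in KO alone, and Ndufs6 lay inside a PML domain. Each window holds 250 bases before and 50 from the start site on, from RefSeq on GRCm38.p6, the assembly of mm10, 5′ to 3′ on the strand of the gene. Capitals mark the letters GCATGCGC (NRF1), CCGGAAGT (ETS) or AAGATGGC (YY1) on either strand. The positions are chr2:174464052-174464351 for Atp5e, chr5:108434350-108434649 for Atp5k, chr13:30545267-30545566 for Uqcrfs1, chr10:80406772-80407071 for Uqcr11 and chr13:73328433-73328732 for Ndufs6, all on the minus strand.
Atp5e: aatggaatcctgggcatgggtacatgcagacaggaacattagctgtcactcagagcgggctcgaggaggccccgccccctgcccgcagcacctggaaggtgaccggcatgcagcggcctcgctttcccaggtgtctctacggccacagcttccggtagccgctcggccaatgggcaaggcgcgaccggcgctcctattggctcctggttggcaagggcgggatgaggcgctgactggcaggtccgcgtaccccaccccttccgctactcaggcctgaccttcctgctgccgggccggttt
Atp5k: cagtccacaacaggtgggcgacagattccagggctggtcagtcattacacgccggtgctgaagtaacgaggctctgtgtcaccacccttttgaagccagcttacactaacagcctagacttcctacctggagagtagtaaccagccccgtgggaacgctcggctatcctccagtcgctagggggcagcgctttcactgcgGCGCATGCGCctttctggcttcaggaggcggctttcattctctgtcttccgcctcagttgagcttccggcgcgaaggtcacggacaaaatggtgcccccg
Uqcrfs1: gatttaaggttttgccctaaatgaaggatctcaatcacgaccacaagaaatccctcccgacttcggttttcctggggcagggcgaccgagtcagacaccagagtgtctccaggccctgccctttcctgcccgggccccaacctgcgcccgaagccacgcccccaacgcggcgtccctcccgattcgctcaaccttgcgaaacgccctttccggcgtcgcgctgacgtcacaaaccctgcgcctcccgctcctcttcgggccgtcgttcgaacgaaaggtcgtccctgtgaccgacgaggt
Uqcr11: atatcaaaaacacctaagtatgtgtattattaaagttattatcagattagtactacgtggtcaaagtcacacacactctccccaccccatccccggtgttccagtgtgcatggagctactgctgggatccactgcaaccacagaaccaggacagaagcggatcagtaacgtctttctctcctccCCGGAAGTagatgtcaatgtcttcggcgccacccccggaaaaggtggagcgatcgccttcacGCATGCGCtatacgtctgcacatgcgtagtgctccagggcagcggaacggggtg
Ndufs6: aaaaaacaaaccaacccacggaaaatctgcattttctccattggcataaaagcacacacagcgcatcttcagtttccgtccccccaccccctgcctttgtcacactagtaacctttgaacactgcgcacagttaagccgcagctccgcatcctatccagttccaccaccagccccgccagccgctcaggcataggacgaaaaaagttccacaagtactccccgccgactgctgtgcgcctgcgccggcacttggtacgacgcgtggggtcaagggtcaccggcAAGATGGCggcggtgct

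A promoter window was matched to 73 of the 88 members. The NRF1 letters GCATGCGC stood in 15.1% of the 73 windows, against 3.71% of the 17237 windows of genes in the tables and 4.68% of 1112 windows of other genes with at least 50 FPKM (RNA fragments mapped to a gene, divided by its transcript length and by library size) in the unnumbered WT table. The YY1 letters AAGATGGC stood in 13.7% of member windows, 3.3% of table genes and 4.59% of the highly expressed genes. In 9 of the 10 members with YY1 letters the match began after the start site, between bases 23 and 39, as in Ndufs6 at base 34. Among other table genes with these letters 49.1% had a match after the start site. The ETS letters CCGGAAGT stood in 6.85%, 5.42% and 8.27% of the same 3 sets, and the SP1 letters GGGCGG in 43.8%, 47.4% and 69.2%. Both strands were searched, and matches of different strings overlapped in 0 member windows. Of the 73 windows 25 held NRF1, ETS or YY1 letters, and Uqcr11 alone held both NRF1 and ETS letters. In the numbered pair the 25 had a median KO minus WT difference of -1.46 and the 46 other members used had -1.19, on the scale explained next, with 13 of 25 and 26 of 46 at least 2-fold lower.

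Differences in RNA are log2(FPKM + 1) in KO minus that in WT, and a gene was used where at least 1 FPKM was listed in either genotype. The numbered WT table stood apart from the other 3 tables. Its FPKM summed to 964437, against 417175 in numbered KO, 524662 in unnumbered WT and 508827 in unnumbered KO, and cytosolic ribosomal protein genes held 38.7% of its sum against 14.8% to 17.6% in the others. Members held 4.40% of the sum in numbered WT, 2.58% in numbered KO, 2.28% in unnumbered WT and 2.44% in unnumbered KO. Scaling the tables to equal sums moved the median of all genes in the numbered pair from 0.06 to 1.15, so values relative to that median are given beside the deposited scale. Pml, the targeted gene, was listed at 15.0 (WT) and 10.2 FPKM (KO) by the numbered tables and at 7.62 and 4.22 by the unnumbered ones, and a value per gene does not separate reads inside and outside a deleted part. Xist, expressed in female cells, was 19.5 FPKM in numbered WT and 0.0517 in numbered KO, while Ddx3y, on the Y chromosome, was 0.0384 and 7.67. The numbered tables thus differed in both genes, in opposite directions. In the unnumbered pair Xist was 5.89 and 8.25 and Ddx3y 21.7 and 11.4. Fibroblast markers, 8 genes, summed to 8489 FPKM in numbered WT, 4524 in numbered KO, 10587 in unnumbered WT and 9382 in unnumbered KO, with at least 7 of 8 at 1 FPKM or more. Thy1, a surface protein of many fibroblasts, was 0.141 and 0.100 FPKM in the numbered tables and 210 and 120 in the unnumbered ones. The part of the FPKM sums, of these markers and of the sex-linked difference in the results below was not tested.

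In the numbered pair, 45 of the 83 members used were at least 2-fold lower in KO as deposited, against 15.7% of all genes used, and 21 after scaling to equal sums, against 5.53% of all genes. All 21 were among the 45. Only Ndufaf4, an assembly factor of complex I, was at least 2-fold higher as deposited (6.5% of all genes), while 17 members were so after scaling, against 57.5% of all genes. The members' median difference was -1.17 as deposited and 0.01 after scaling, so its direction depended on the scale. Relative to the median of all genes it was -1.23 and -1.14 on the 2 scales, and 73 of 83 members lay under the median of all genes after scaling. On the deposited scale 25 members were lower by at least 4-fold and 9 by at least 8-fold, against 5.17% and 1.52% of all genes. The 9 were Atp5e, Atp5k, Uqcrq, Ndufa2, Ndufs6, Ndufb7, Atp5d, Atp5j2 and Ndufa3, which all encode small subunits.

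**Figure D1:**
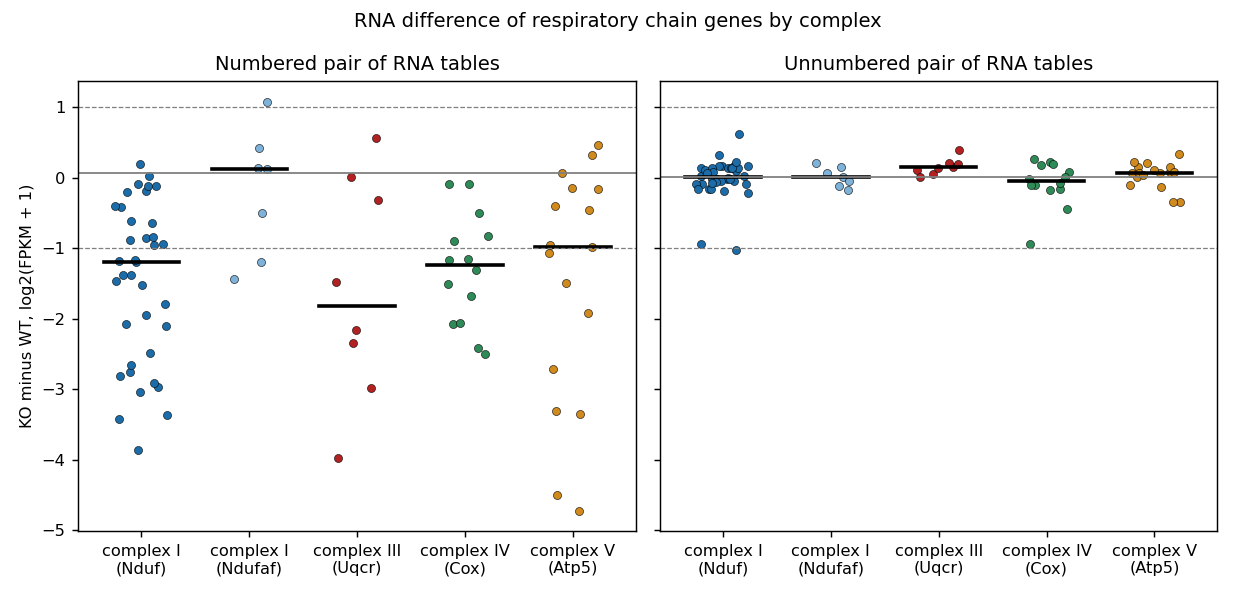
KO minus WT difference in log2(FPKM + 1) of each member (points) by complex, with the group median (black bar), the median of all genes (grey line) and 2-fold lines (dashed), for the numbered pair on the left and the unnumbered pair on the right. In the numbered pair as deposited 45 of 83 members lie at or under -1, and 21 do so when each table is scaled to the same sum, which moves the members' median from -1.17 to 0.01. In the unnumbered pair 1 of 84 does.

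Complex I was the largest group. Of its 37 genes used, 21 were at least 2-fold lower in KO as deposited (15.7% of all genes) and 10 after scaling (5.53% of all genes). Its median lay 1.25 under that of all genes as deposited (-1.25) and 1.14 under it after scaling (-1.14). Among the 7 nuclear core subunits, which carry the flavin, iron-sulphur clusters or quinone site, 4 were at least 2-fold lower as deposited. Ndufs7 was 576 FPKM in numbered WT and 102 in numbered KO (-2.48), and 52.3 and 48.9 in the unnumbered pair. Ndufv1, which binds NADH and the flavin, was 179 and 41.7 (-2.07), against 46.0 and 45.3 unnumbered. Ndufs8 and Ndufs3 had differences of -1.78 and -1.46. The largest core subunit gene product, that of Ndufs1, was different: its gene was 24.7 FPKM in numbered WT, 28.4 in numbered KO, 34.9 in unnumbered WT and 38.7 in unnumbered KO. Ndufv2 had a numbered difference of -0.12, so differences varied within the core.

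The accessory subunits of complex I covered an even wider range in the numbered pair. Ndufa2, which has a thioredoxin-like fold, was 2281 FPKM in numbered WT, 156 in numbered KO, 170 in unnumbered WT and 211 in unnumbered KO. Its numbered difference of -3.87 was the lowest of the complex, and numbered WT alone was high. Ndufs6, a zinc-binding subunit, was 559, 51.2, 64.9 and 71.1 FPKM in the same order (-3.42). Ndufb7 had 855, 82.3, 80.2 and 87.9 FPKM (-3.36). At the other end, Ndufb3 was 71.7, 72.7, 57.7 and 64.7 FPKM (0.02), and Ndufa9 and Ndufab1 had differences of -0.09 and -0.19. The remaining accessory genes filled the range between. Ndufa11 was 122, 14.8, 15.3 and 24.0 FPKM (-2.96) and Ndufb10 was 569, 74.9, 67.9 and 58.0 (-2.91), so numbered WT alone was high for both. Ndufa13, also known as GRIM-19, was 356, 49.7, 101 and 111 FPKM (-2.82), and Ndufb2 and Ndufv3 had differences of -2.76 and -2.66. Ndufa12, Ndufa8, Ndufb9 and Ndufa4 lay between -1.95 and -1.38, and Ndufb4, Ndufb8, Ndufa6 and Ndufb6 between -0.64 and -0.40. Ndufab1 encodes the mitochondrial acyl carrier protein, which also serves fatty acid synthesis, and it was 67.8, 59.1, 52.7 and 56.1 FPKM.

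Ndufaf genes, whose products help to build complex I and do not stay in it, were mostly low, with a median of 6.52 FPKM in numbered WT. Their median difference lay 0.07 above that of all genes as deposited and 0.04 above it after scaling. Ndufaf4 was 5.57 FPKM in numbered WT and 12.9 in numbered KO (1.08), and 5.16 and 4.68 in the unnumbered pair. Ndufaf3 and Ndufaf2 had numbered differences of -1.43 and -1.19, and Ndufaf2 was 60.5 FPKM in numbered WT against 12.5 to 25.9 in the other tables.

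Among the Uqcr genes of complex III the median differed between core and small subunits, while the values of the sets overlapped. Cyc1, for the cytochrome c1 subunit of this complex, falls outside the symbol rule and is in neither set. It was 173 FPKM in numbered WT and 109 in numbered KO (-0.67). The 3 genes for the large core proteins and the Rieske protein had a median numbered difference of 0.01, and the 5 genes for small subunits had -2.35. After scaling these medians were 1.20 and -1.14, so the first set lay 0.05 above the median of all genes and the second 2.30 under it (-2.30). Uqcrq was 2370 FPKM in numbered WT, 149 in numbered KO, 173 in unnumbered WT and 199 in unnumbered KO (-3.98). Uqcr11 was 855, 107, 197 and 258 FPKM (-2.99), Uqcr10 had a difference of -2.35 and Uqcrh, the hinge protein that docks cytochrome c1, of -2.15. Uqcrb was the exception among the small subunits, with 211 FPKM in numbered WT and 169 in numbered KO (-0.32). Uqcrfs1, the Rieske iron-sulphur protein, was 55.9, 56.2, 50.8 and 55.9 FPKM, the same in all tables to within 1.5-fold. Uqcrc2 was 34.2, 50.8, 76.0 and 79.1 FPKM (0.56), and its partner Uqcrc1 was 314, 112, 88.9 and 101 (-1.47), so the core pair differed in opposite directions as deposited. After scaling Uqcrc2 was 1.75.

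Complex IV had 14 genes used in the numbered pair, all of them under 0 as deposited and all under the median of all genes on either scale. At least 2-fold lower were 9 as deposited (15.7% of all genes) and 3 after scaling (5.53% of all genes). The median lay at -1.30 and -1.35 relative to all genes. Cox5b, a zinc-binding subunit, was 829 FPKM in numbered WT, 145 in numbered KO, 186 in unnumbered WT and 217 in unnumbered KO (-2.50). Cox7a2 was 392, 72.9, 168 and 159 FPKM (-2.41). Cox4i1, the common form of a regulatory subunit, was 1582, 635, 426 and 396 (-1.32), and Cox5a had a difference of -0.90. Cox8a was 364, 342, 449 and 450 FPKM (-0.09), and X-linked Cox7b was 94.2, 88.1, 95.0 and 101 (-0.10). These 2 were nearly level in the 4 tables.

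Complex V held the lowest differences of the whole set. In its catalytic F1 part, Atp5e, the epsilon subunit, was 3410 FPKM in numbered WT, 128 in numbered KO, 374 in unnumbered WT and 295 in unnumbered KO. Its numbered difference was -4.72. Atp5d, the delta subunit, was 1206, 118, 128 and 134 FPKM (-3.34). The alpha, beta and gamma subunits of the same F1 part differed much less. Atp5a1 was 266, 333, 269 and 270 FPKM (0.32), Atp5b was 852, 647, 418 and 526 (-0.40) and Atp5c1 was 197, 175, 145 and 131 (-0.16). Relative to the median of all genes after scaling, Atp5e was -4.67 and Atp5a1 0.38. Among small membrane subunits Atp5k was 4145, 182, 497 and 526 FPKM (-4.50) and Atp5j2 was 3064, 308, 287 and 300 (-3.31), while Atp5l was 590, 297, 299 and 349 (-0.99). In the stator, which holds the catalytic head of F1 still, Atp5o was 850 FPKM in numbered WT and 128 in numbered KO (-2.72). Atp5f1 was 84.4 and 116 (0.45). The c ring is encoded by 3 genes for one mature protein, and Atp5g1, Atp5g3 and Atp5g2 had differences of -1.91, -1.06 and -0.46.

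**Figure D2:**
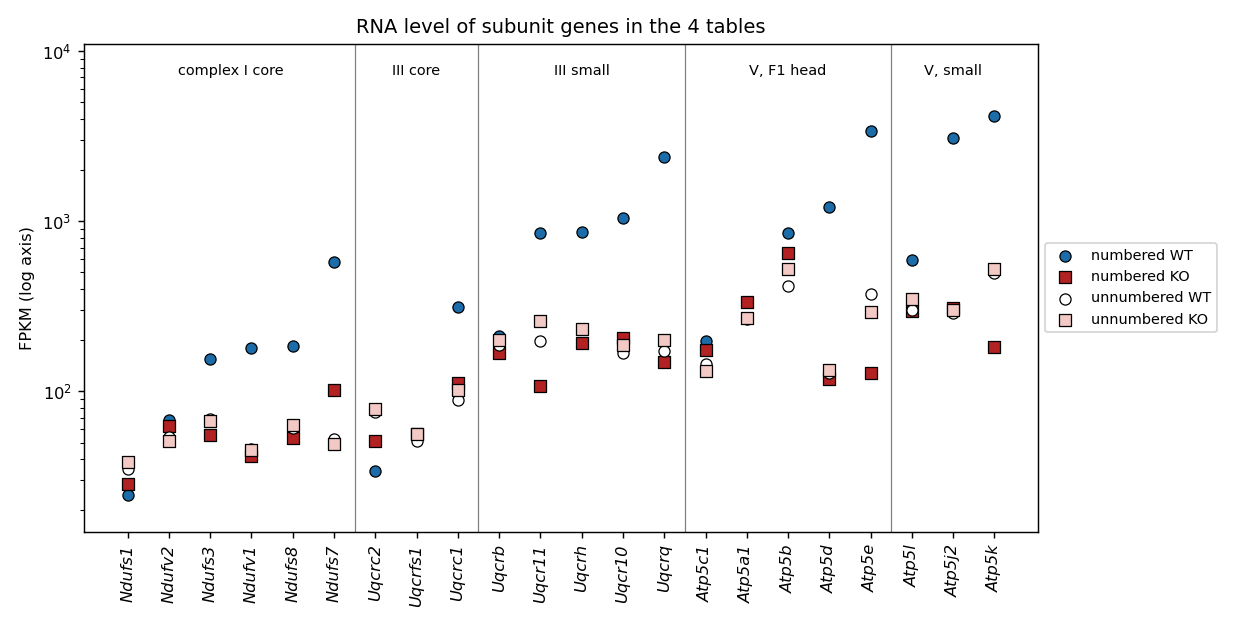
FPKM (log axis) of 22 genes for core and small subunits of complexes I, III and V in the 4 RNA tables, circles for WT and squares for KO, filled dark for the numbered and light or open for the unnumbered pair. Numbered WT stands above the other 3 tables for Atp5k, Atp5e, Atp5j2 and Uqcrq, at 2370 to 4145 FPKM, and not for Ndufs1, Uqcrc2, Uqcrfs1 or Atp5a1.

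The unnumbered pair did not show these differences. Of 84 members used, 1 was at least 2-fold lower in KO (3.83% of all genes) and 0 were higher (1.74% of all genes). The median was 0.06 against 0.01 for all genes, and 80 of 84 lay within 1.5-fold. The 1 lower gene was Ndufa4l2, a paralog of Ndufa4 that is induced by hypoxia, at 2.27 FPKM in WT and 0.61 in KO (-1.02), and it was listed at 0 in numbered WT and 0.02 in numbered KO. Ndufs5 came next, with 86.8 FPKM in unnumbered WT and 44.8 in unnumbered KO (-0.94). The highest was Ndufa11, with 15.3 and 24.0 FPKM (0.62). All 8 complex III genes were slightly above 0, from 0.00 for Uqcrh to 0.39 for Uqcr11, with a median of 0.14. On the scale of log2(FPKM + 1) no member was at least 2-fold lower in both pairs. Of the 45 that were in the numbered pair, 41 lay within 1.5-fold in the unnumbered pair. By plain FPKM, without the added 1, Cox6b2 was 5.65-fold (numbered) and 2.07-fold (unnumbered) higher in WT than in KO. Markers of macrophages, of which 7 of 8 were in the tables, summed to 77.5 FPKM in unnumbered WT with 7 at 1 FPKM or more, to 3.36 in unnumbered KO with 1, and to 1.09 and 0.97 in the numbered tables with 0. Their part in these values was not tested.

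Levels within a complex were most unequal in numbered WT. Genes of complex I subunits ran from 24.7 FPKM for Ndufs1 to 2281 for Ndufa2, a 92.2-fold range with an SD of 1.34 in log2(FPKM + 1). The range was 19.3-fold in numbered KO, 20.7-fold in unnumbered WT and 14.3-fold in unnumbered KO. In complex III it was 69.3-fold in numbered WT and 4.03-fold, 4.59-fold and 4.62-fold in the other tables. For complex V subunits it was 49.1-fold against 5.95-fold, 4.19-fold and 4.01-fold. Over 82 members, log2 levels of the unnumbered tables had a Pearson correlation of 0.993, and numbered KO had 0.932 with unnumbered WT. Numbered WT had 0.886 with unnumbered WT and 0.861 with numbered KO. These correlations describe genes within tables, which share length and annotation and are not independent. Members stood 1.13 higher (log2, median) in numbered than in unnumbered WT, where all genes had -0.13, and -0.24 in numbered against unnumbered KO, where all genes had -0.18. The pairs were scaled separately by the authors.

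Isoform genes known from particular tissues were low in the fibroblasts. Cox7b2 and Cox8c, known from testis, and Cox8b, known from heart and muscle, were listed at 0 in all 4 tables. Cox6b2, the testis form of Cox6b1, was 5.04 FPKM in numbered WT, 0.89 in numbered KO, 12 in unnumbered WT and 5.80 in unnumbered KO, so KO was lower in both pairs as deposited and in the numbered pair after scaling (-0.99), and the common Cox6b1 stood at 163 to 683 FPKM. Cox6a2, a heart and muscle form, was 4.84, 1.63, 0.92 and 0 FPKM, against at least 310 for Cox6a1. Cox7a1, likewise a muscle form, was 2.15, 0.11, 1.94 and 1.62. Cox4i2, known from lung, was listed at 0 in both numbered tables and at 1.39 and 0.76 in the unnumbered ones. Of 5 muscle markers only Des, for the muscle filament protein desmin, was at 1 FPKM or more, and the 5 summed to 2.70, 57.1, 21.7 and 5.39 FPKM in the same order of tables. At such levels log2(FPKM + 1) understates a change, and the depth is unknown.

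Differences in the numbered pair went with gene span, the annotated length from start to end including introns. Members are short, with a median span of 7205 bases (932 to 106064) against 23450 for all genes used in the numbered pair. Genes used were put into 5 equal bins of span. In the bin of the shortest (up to 7804 bases) 47 members had a median difference of -1.43, and 32 were at least 2-fold lower as deposited. Other genes of that bin had -0.54 with 34.9% lower, and those with at least 50 FPKM in unnumbered WT had -0.89 with 47.1% lower. In the next bin (to 16939 bases) 24 members had -0.95, against -0.11 for other genes and -0.31 for those of high RNA. In the third (to 31489 bases) 7 members had -0.09 and other genes 0.13. Scaling left the gap between members of the shortest bin and members of the longest 3 bins nearly as it was, at -1.35 against -1.32 as deposited. Pearson's r of the difference with log2 span was 0.45 over 83 members and 0.28 over 10934 other genes, and 0.07 over 84 members in the unnumbered pair. Ndufs4 (100300 bases, -0.84) and Ndufaf2 (106064 bases, -1.19) were long genes under 0, and Uqcrfs1 (5005 bases, 0.01), Cox8a (2459 bases, -0.09) and Ndufaf4 (6919 bases, 1.08) were short genes that were not among the lower ones. The split by span and RNA level was chosen after earlier values of these data had been seen.

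**Figure D3:**
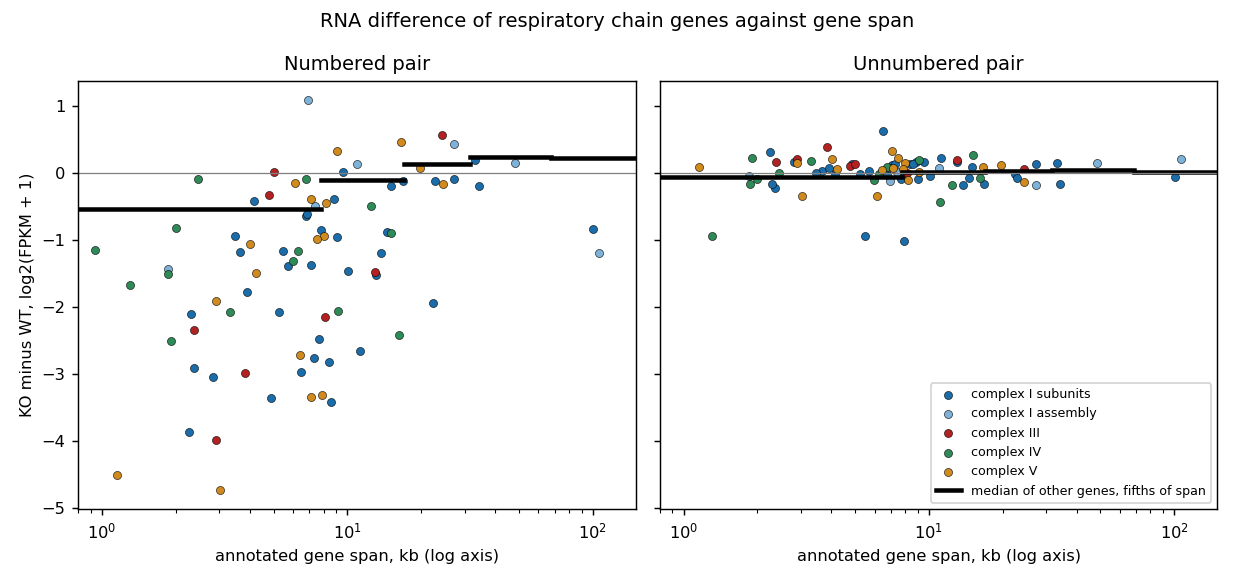
KO minus WT difference in log2(FPKM + 1), as deposited, against annotated gene span in kb (log axis) for each member, coloured by complex, with medians of other genes in 5 bins of span as black lines. In the numbered pair members of the shortest bin have a median of -1.43 against -0.54 for other genes, and both move up when tables are scaled to equal sums. In the unnumbered pair 80 of 84 members lie within 1.5-fold.

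Other mitochondrial and ribosomal genes were set beside the members. On the deposited scale the median of all genes in the numbered pair was 0.06, and scaling moved it and these lists up together. On that scale 15.7% of all genes used were at least 2-fold lower, and the counts below are all as deposited. The first list held 6 genes, for succinate dehydrogenase (complex II), cytochrome c and cytochrome c1, a subunit of complex III. In the numbered pair as deposited, 0 of the 6 were at least 2-fold lower, and their median difference was 0.05. Among them Cycs, cytochrome c, was 47.5 FPKM in WT and 53.6 in KO, and Sdhb, the iron-sulphur subunit, 79.2 and 46.3. The 13 genes of the citric acid cycle had 0 lower and a median of 0.16, and 11 regulators of mitochondrial gene expression, such as Nrf1, Gabpa and Tfam, had 0 lower and a median of 0.18. Of 11 assembly genes for complex IV, 4 were lower (Cox17, Cox19, Cox14 and Cox20), and Cox17, a copper chaperone, was 603 FPKM in numbered WT and 88.1 in numbered KO. Of 74 mitochondrial ribosomal protein genes 30 were lower, with a median of -0.74, and of 76 cytosolic ribosomal protein genes 54 were lower, with a median of -1.72. Of 14 glycolysis genes 2 were lower (14.3%, near the share of all genes), with a median of -0.56. In the unnumbered pair the list medians were 0.17, 0.10, 0.10, 0.05, -0.03, -0.28 and 0.46 in the same order.

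H3.3-Flag regions covered at least 0.5 of the span of 32 members in WT and of 37 in KO, that is 36.4% and 42.0%, against 22% and 23.2% of all 22482 genes with a position. In 30 members this held in both genotypes, and 30 others had no Flag cover in either. The members covered from end to end in both included Atp5b, Atp5d, Atp5j, Atp5l, Cox4i1, Cox8a, Uqcrq, Uqcrc2 and Ndufs3. Those without any cover in both included Uqcrfs1, Cox5b, Cox6c, Cox7c, Atp5o, Atp5k, Ndufb7 and Ndufs6, although Cox6c was at 421 FPKM and Atp5k at 497 in unnumbered WT. Among genes with at least 50 FPKM in unnumbered WT, 43.3% of 67 members were covered over at least 0.5 of the span in WT and 49.3% in KO, against 70.0% and 71.3% of 1415 other genes. In 5 bins of the span of all genes, 53.3% of 15 such members up to 3804 bases were covered in WT against 87.6% of 282 other genes. From there to 10983 bases it was 45.7% of 35 against 68.1% of 364, and to 23670 bases 30.8% of 13 against 62.3% of 313. Within 1000 bases of the start site 50% of 58 such members were covered over at least 0.5 of the window in WT and 48.3% in KO, against 81.6% and 74.1% of 1112 other genes of high RNA. This level of RNA was set after the values had been seen.

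**Figure D4:**
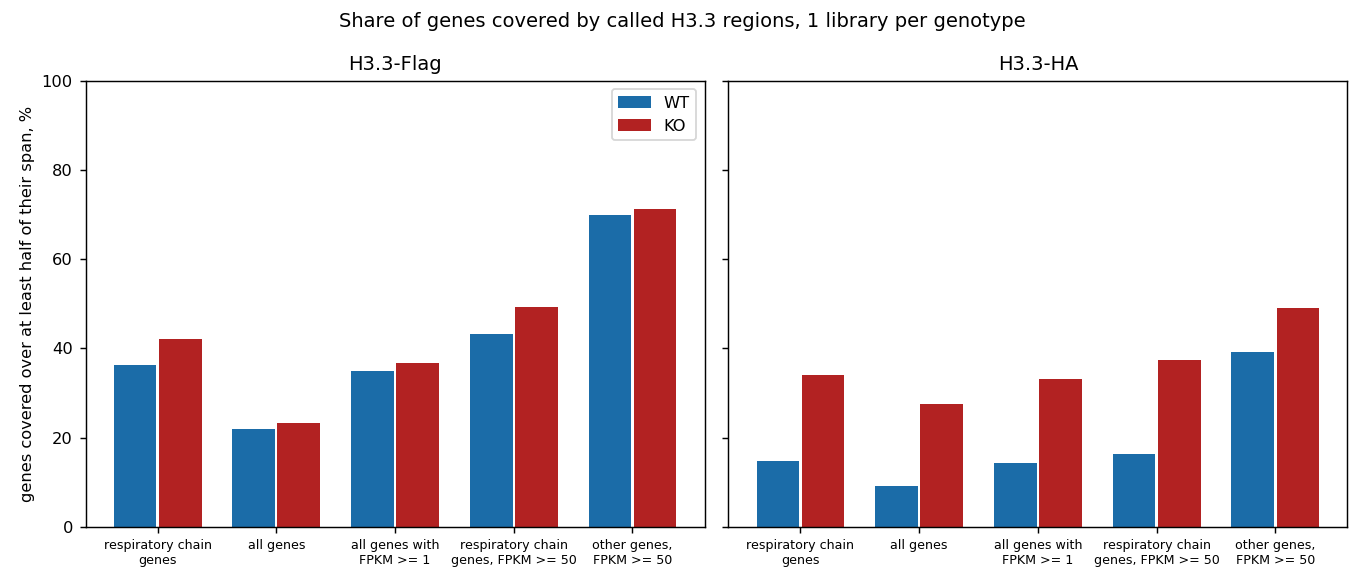
Percent of genes whose span was covered over at least 0.5 by called H3.3-Flag (left) or H3.3-HA (right) regions in WT (blue) and KO (red), with 1 library per bar and no error. With Flag, 43.3% of members with at least 50 FPKM are covered in WT against 70.0% of other genes at that level.

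By complex, at least 0.5 of the span was covered with Flag in 12 of 38 complex I genes in WT and 15 in KO, in 3 and 5 of 8 complex III genes, in 7 and 8 of 18 complex IV genes and in 9 and 8 of 17 complex V genes. Among the assembly factors Ndufaf3 alone passed, at 100% in both.

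Between genotypes, the Flag-covered share of 7 members was higher in KO by at least 0.5 (2.9% of all genes) and that of 1 was lower (2.55% of all genes). Among them were Ndufb2, Ndufb9, Ndufs7, Uqcr11, Uqcrb and Cox4i2. With at least 50 FPKM in unnumbered WT, a gain was found in 8.96% of 67 members and 4.66% of 1415 other genes. A loss was found in 1.49% and 3.96% of these sets. In the bin of such genes from 3806 to 10983 bases, 14.3% of 35 members and 8.24% of 364 other genes had a gain. Uqcr11 had no Flag region over its span in WT and an 11 kb region in KO at chr10:80398001-80409000, which takes in the promoter shown above. Within 1000 bases of its start site 41.0% was covered in WT and 100% in KO. Ndufb2 had a 3 kb region in WT and a 22 kb region in KO over the whole gene. Ndufa3 was the member with less cover, by a 2 kb region of WT at chr7:3617001-3619000. None of the 8 was at least 2-fold changed in the unnumbered pair. In the numbered pair as deposited, 4 of the 6 used members with a gain and the 1 with a loss were at least 2-fold lower. That compares with 45 of all 83 members used and 15.7% of all genes. Region signals differed between the libraries: the lowest of any Flag region was 12.1 in WT and 0 in KO, and the median over regions on members was 26.8 in WT and 10.2 in KO. With a minimum signal of 13 in both, 1 member had a higher and 23 a lower share in KO, against 0.534% and 12.6% of all genes. This minimum lies near the lowest WT signal and was chosen after seeing the data.

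With the HA tag, 13 members (14.8%) were covered over at least 0.5 in WT and 30 (34.1%) in KO, against 9.07% and 27.5% of all genes. Among genes with at least 50 FPKM in unnumbered WT it was 16.4% and 37.3% of 67 members, against 39.3% and 49.0% of 1415 other genes. Within 1000 bases of the start site 16.4% of 73 members were covered in WT and 31.5% in KO, against 20.3% and 26.9% of all genes. The share was higher in KO by at least 0.5 in 18 members, 20.5% of 88, and 21.3% of all genes were so, which is near the background. It was lower in 1 member, Atp5j2 (3.17% of all genes). Regions in KO were far longer: over members their median length was 9 kb in WT and 529.5 kb in KO, and their median signal 13.1 and 1.41. A single KO region of 2168 kb at chr10:79493001-81661000 touched 125 table genes, Uqcr11 among them. The 12 members covered by HA in both genotypes included Atp5b, Atp5d, Atp5j, Cox4i1, Uqcrq, Ndufb10 and Ndufaf3, and each of these 7 was also fully covered with the Flag tag in both. With a minimum signal of 3, 4 members had a higher and 11 a lower share in KO, against 2.19% and 6.98% of all genes.

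PML regions of WT covered 2 of 88 members (2.27%) against 10.6% of all genes, and none in KO. Of genes with at least 1 FPKM in any table, 0.964% were so covered in WT. With at least 50 FPKM in unnumbered WT it was 1 of 67 members and 0.141% of 1415 other genes. Ndufs6 lay in a PML domain of 670 kb at chr13:72660001-73330000, with H3K9me3, a mark of heterochromatin, over 36.3% of the gene in WT and 100% in KO. Cox7b2 lay in a PML domain of 1420 kb at chr5:70630001-72050000, and its share under H3K27me3, a mark of Polycomb repression, went from 19.9% to 100%, the 1 gain among members (4.19% of all genes). Cox6b2 was the 1 member whose H3K27me3 share was lower in KO by at least 0.5, from 100% to 0 (5.9% of all genes), and that of Cox4i2 went from 36.7% to 0. H3K9me3 covered at least 0.5 of 1 member in WT and of 10 in KO, and 10 members had a gain (13.6% of all genes) and Ndufc2 a loss (6.61% of all genes). The 10 were Atp5j2, Atp5k, Cox6a1 and Cox7b2 on chromosome 5, Ndufa1 and Ndufb11 on X, Cox8c, Ndufa9, Ndufs5 and Ndufs6. On chromosome 5 as a whole H3K9me3 covered 41.2% in WT and 77.5% in KO. The KO region over Atp5j2 was 3638 kb long and touched 63 table genes. A gain in H3K9me3 was found in 9.82% of genes with at least 1 FPKM in any table. With at least 50 FPKM in unnumbered WT it was 11.9% of 67 members and 6.86% of 1415 other genes. For H3 itself the covered share was higher in KO by at least 0.5 in 20 members (22.7%, against 15.6% of all genes). It was lower in Uqcrh (3.6% of all genes). Such a gain in H3 was found in 19.2% of genes with at least 1 FPKM in any table. With at least 50 FPKM in unnumbered WT it was 20.9% of members and 22.3% of other genes.

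The 3 members on the X chromosome were Ndufa1, Ndufb11 and Cox7b. Each lay wholly under H3K27me3 in both genotypes, where 77.6% of the X was covered in WT and 99.1% in KO. Cox7b was covered by H3.3-Flag from end to end in both genotypes, and Ndufa1 and Ndufb11 had no H3.3 cover with either tag. The H3K9me3 share of Ndufa1 and Ndufb11 went from 0 to 100% and that of Cox7b stayed at 0. On the X as a whole H3K9me3 covered 48.3% in WT and 46.7% in KO. Ndufa1 was 150 FPKM in numbered WT, 65.2 in numbered KO, 92.3 in unnumbered WT and 93.8 in unnumbered KO (-1.19 and 0.02). Ndufb11 was 247, 56.5, 99.1 and 88.1 FPKM (-2.11 and -0.17), and Cox7b was nearly level. The part of the Xist and Ddx3y difference in these values was not tested.

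RNA and Flag cover were set side by side for the members. The 30 members covered in both genotypes had a median of 135 FPKM in unnumbered WT, and the 30 without cover had 68.5, at median spans of 7106.5 and 6587.5 bases. Their median numbered differences were -1.38 and -1.15, with 16 of 29 and 14 of 27 used members at least 2-fold lower as deposited. The FPKM medians took in all genes of both sets. The set without cover held the isoform genes Cox7b2, Cox8b and Cox8c, listed at 0, and 26 of its 30 genes were used in the unnumbered pair. Among the 9 members lower by at least 8-fold in the numbered pair, Uqcrq, Atp5d, Atp5j2 and Ndufa2 were fully covered in both genotypes, and Atp5k, Ndufb7 and Ndufs6 had no Flag cover in either.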

How the data were processed

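The members and gene lists were chosen with earlier results of these data known. The authors deposited RNA values as FPKM per gene, in 1 table per genotype pooled from 3 numbered samples and 1 table per unnumbered sample. Bowtie 1.0.0, TopHat2 2.0.8b, Cufflinks 2.2.1, Cuffdiff 2.2.1 and the build mm10 are named in the submitters' processing notes. ChIP files deposited by the authors were called regions with a signal and a score for H3.3, H3K9me3 and H3K27me3, and a score for H3 and PML. The region caller is not given in the sources used here, and the depth of every library is unknown. The log2(FPKM + 1) of WT was taken from that of KO for genes with at least 1 FPKM in either genotype. Lines with a repeated name or with several names were dropped (598 or 633 per table). Symbols were matched to RefSeq on GRCm38.p6 (99.5% of 22593 genes, and all 88 members, 3 of them by a synonym). A gene counted as covered where regions took in at least 0.5 of its span, and as gained or lost where that share differed by at least 0.5. Genes were named by fixed rules: core subunits, the 2 lowest and 2 highest differences per complex and pair, tissue isoforms, members at least 2-fold higher or 2-fold the same way in both pairs, and members whose Flag, PML or H3K9me3 cover passed 0.5. Further genes were named after their values were seen, and 1 gene that the rules name is not reported here. Cover and differences were tested on simulated data. Alternatives were the pseudocount, the FPKM minimum, 4 scalings, kept lines, subunits alone, the signal minimum, the share called, start-site windows and chromosomes 10 to 19. Python 3.11.15, numpy 2.4.6, pandas 2.3.3, scipy 1.17.1 and matplotlib 3.10.9 were used.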

Additional observations from a re-analysis of the deposited data

Results flagged for a closer look

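The members' median difference was -1.17 in the numbered pair as deposited and 0.06 in the unnumbered pair, on opposite sides of 0 under the same contrast. The difference between the pairs was not tested, and it is between single tables. Scaling the numbered tables to equal sums gave 0.01.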

How the results depend on the processing

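No paired analysis was possible because the numbered samples were pooled into 1 table per genotype. Median transcript length in place of gene span was not run, since no such lengths were used here. In the numbered pair, scaling to equal sums gave 21 members lower and 17 higher and a median of 0.00963. Among members at least 2-fold lower as deposited, it turned Atp5g3 (0.143), Cox6c (0.0452), Ndufa1 (0.00873), Ndufa7 (0.00963) and Ndufs5 (0.0297) to above 0. Many members with smaller deposited differences under 0 also turned, such as Atp5l (-0.988 to 0.219) and Cox5a (-0.903 to 0.302). Scaling without cytosolic ribosomal protein genes gave 5 higher and a median of -0.42. Subunit genes alone gave 0 higher. The median relative to all genes lay between -1.37 and -1.11 under every alternative run. In the unnumbered pair 2 members were lower at a pseudocount of 0.1, and 0 were at a minimum of 5 FPKM or among subunits alone. With the Flag tag the members lower in KO were 2 at a minimum signal of 3 and 3 at a share difference of 0.25. Start-site windows gave 3 higher and 5 lower, with 47.9% covered in WT. Chromosomes 10 to 19 alone gave 4 higher and 0 lower, over 38 members in place of 88. A minimum signal of 13, chosen after seeing the data, gave 1 higher and 23 lower, with 11.4% covered in KO. With the HA tag a minimum signal of 1 gave 10 higher and 4 lower with 21.6% covered in KO, and a minimum of 3 gave 4 and 11 with 6.82%. Start-site windows gave 4 lower with HA. Chromosomes 10 to 19 gave 11 higher and 0 lower, with 23.7% covered in WT and 52.6% in KO, over 38 members in place of 88. Apart from minimum signals of 13 (Flag) and 3 (HA), treated above, these counts of cover are not set beside shares of all genes. They show how the calls moved with the setting and are no result about the members. The cause of these changes was not tested. Without ribosomal protein genes 68.4% of other genes of high RNA had Flag cover in WT. Depth is unknown, so low FPKM values carry no limit of detection.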
